A study of Mus musculus with 11 samples.

Results

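The complement and coagulation factors are blood proteins that work as chains of proteases, with their cofactors, inhibitors and receptors, and 44 of their genes were followed here in mouse liver. The genes were taken from a list of names and matched to array probes through the RefSeq accession that the scanner files give for each probe. The rule uses no measured value, but the list was chosen with earlier results of these data known. They were represented by 58 of the 56605 probes, and make up 44 of the 22911 genes that have a name through the same match. All 58 probes were among the 36055 that passed the filter on low values, a signal well above background on 2 or more of the 11 arrays. By role, 5 genes belonged to the contact system, 5 were tissue factor and the vitamin K-dependent factors, 2 were cofactors, 4 served fibrin formation, 5 were inhibitors of coagulation and 2 belonged to fibrinolysis. Of the complement genes, 8 start the classical and lectin pathways, 4 make up the C3 convertases, 5 belong to the terminal pathway and 4 are regulators or a receptor.

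The arrays compared 4 groups of wild-type male C57Bl6/J mice that were injected intraperitoneally at 8 weeks of age with AAV8 vectors, an adeno-associated virus that reaches hepatocytes, and whose liver was taken on day 5. The GFP group (3 arrays) received AAV8-GFP at 6e+11 viral genomes per mouse. The NICD1 group (3 arrays) received AAV8-NICD1 and AAV8-GFP at 3e+11 each, and the NICD2 group (3 arrays) AAV8-NICD2 and AAV8-GFP at 3e+11 each. The NICD1&2 group (2 arrays) received AAV8-NICD1 and AAV8-NICD2 at 3e+11 each and no GFP vector, so that every mouse carried 6e+11 in total and the groups differ in their GFP vector as well. NICD1 is the Notch1 intracellular domain and NICD2 that of Notch2, the parts of these receptors that act in the nucleus, and all vectors used a CMV promoter, which is not restricted to hepatocytes. The question was how forced Notch1 and Notch2 signals, alone and together, differ from the GFP control and from each other. The labels number the arrays but do not tie each to a mouse of its own, so p-values measure the spread between arrays.

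Coagulation starts when tissue factor, a membrane protein outside the circulation, meets factor VII in blood, or when the contact factors meet a charged surface. Both routes lead through factor X to thrombin, which cuts fibrinogen into fibrin, and plasmin later dissolves the clot. Complement is started by antibody through C1q, by sugars on microbes through the mannose-binding lectins, or by itself through factor B, and all 3 routes cleave C3 and then build a pore from C5b to C9. Hepatocytes make most of these plasma proteins, while C1q comes mainly from macrophages and factor VIII mainly from endothelium. In bulk liver, fewer cells of a type and less RNA per cell cannot be told apart.

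Values are log2 of the signal of a probe less the 75th percentile of its array, so 1 unit is a doubling, and a difference is a mean of one group less the mean of the other. Where a gene had several probes, the one of highest mean level stood for it. Of the 11 members with several probes, the probes differed in sign for 2 in NICD1, 3 in NICD2, 2 in NICD1&2 and 6 in NICD1 against NICD2. The thresholds were a Benjamini-Hochberg adjusted p under 0.05 over all 36055 probes from limma, and the study's own definition of an altered gene, an unadjusted P under 0.15 with a fold change over 1.8. The arrays held 57.0% to 62.0% of spots well above background and 0 saturated spots, and their number limits the precision. All 14 hepatocyte markers were well above background on all 11 arrays. Spp1, a secreted protein of bile duct cells, was higher in each NICD group by 1.71 (NICD1, adjusted p = 0.0946), 1.81 (NICD2, adjusted p = 0.0265) and 2.23 (NICD1&2, adjusted p = 0.0109). The probes for Notch1 and Notch2 differed from GFP by 0.22 and 0.29 in NICD1 and by -0.37 and 0.21 in NICD2, and where they lie relative to the intracellular domains was not determined, so they do not check the labels. GFP 1, GFP 2, NICD1 1, NICD2 1, NICD2 2 and NICD1&2 1 shared slide 1 and the other 5 arrays shared slide 2, so each group lay on both slides.

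The liver's complement and coagulation genes mostly lay close to their GFP level in all NICD groups, with F3, the gene for tissue factor, as the exception in NICD1 and in NICD2, and C5ar1, a complement receptor, at the largest difference in NICD1&2. That of C5ar1, a dim probe that GFP 2 did not detect well above background, was 0.83 and became 0.00021 under normexp correction with quantile normalization. Of the 44 genes, 40 differed from GFP by less than 0.25 in NICD1, 40 in NICD2 and 33 in NICD1&2, where 71.7%, 71% and 53% of all probes tested did, and 43 differed by less than 0.25 in NICD1 against NICD2, where 76.9% of all probes did. With limma, 0 of the 44 passed an adjusted p under 0.05 in NICD1, in NICD2, in NICD1&2 or in NICD1 against NICD2, beside 0.00832%, 0.0527%, 0.0998% and 0.00277% of all probes. At an unadjusted p under 0.05, 5 were lower and 0 higher in NICD1 (background 2.52% lower, 2.99% higher), 1 lower and 0 higher in NICD2 (3.05% and 3.77%), 2 lower and 2 higher in NICD1&2 (4.61% and 10.3%), and 0 in NICD1 against NICD2 (2.01% and 1.74%). The study's definition was met by F3 alone, as lower in NICD1 (background 0.491% lower, 1.68% higher) and in NICD2 (0.652% and 1.32%), by 0 genes in NICD1&2 (1.44% and 4.83%) and by 0 in NICD1 against NICD2 (0.488% and 0.732%).

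**Figure D1:**
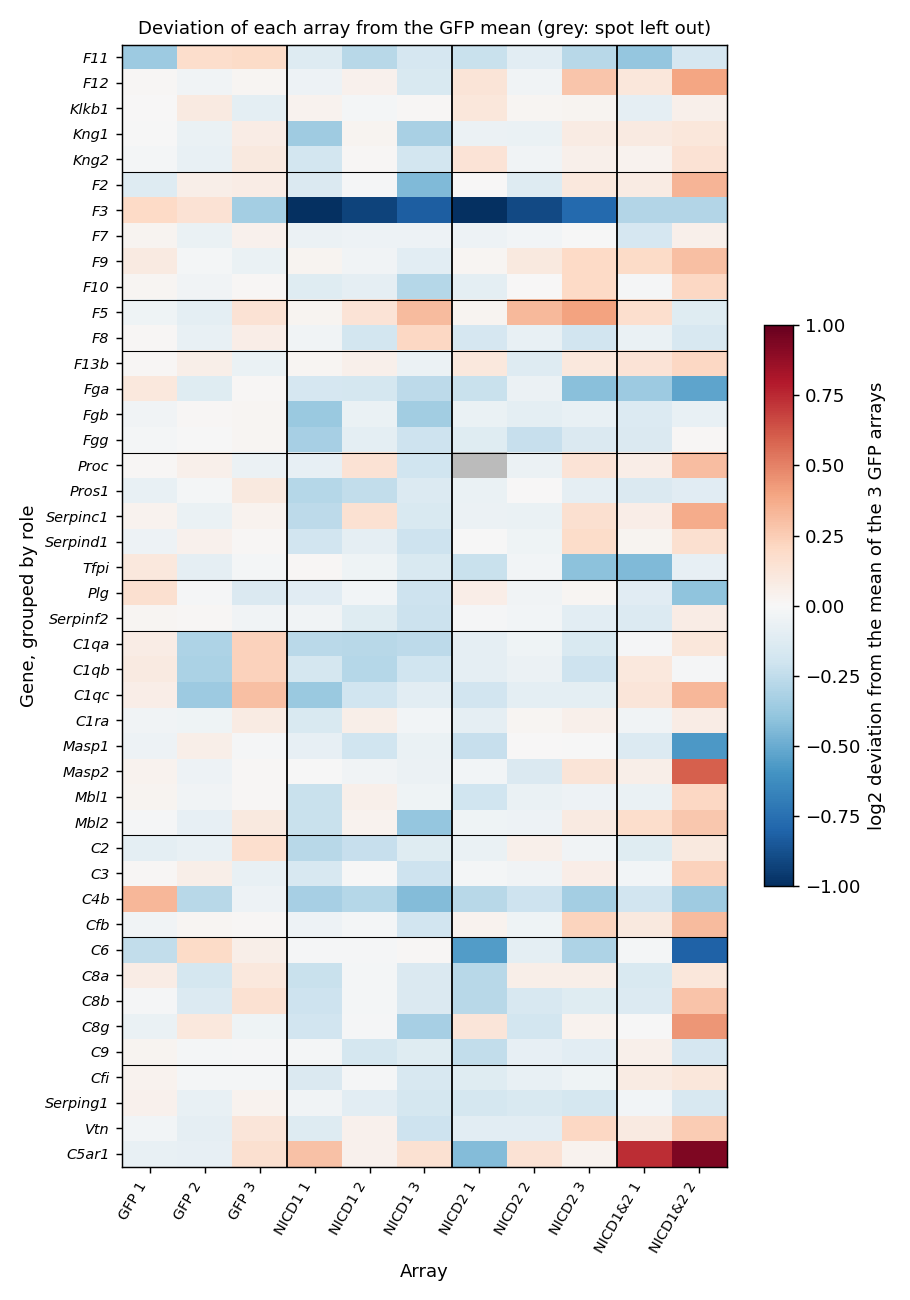
Log2 deviation of each of the 44 genes (rows, grouped by role) on each of the 11 arrays (columns) from the mean of the 3 GFP arrays, with colour from -1 to 1. F3 is the row that is dark blue on all 3 NICD1 and all 3 NICD2 arrays, C5ar1 is dark red on both NICD1&2 arrays, and most other cells are pale.

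The SE of a difference from GFP lay between 0.08 and 0.23 for the 44 genes, and the SD over the 3 GFP arrays between 0.02 and 0.34. The intervals cover the spread between arrays for 1 probe of each gene under 1 scaling. The 95% interval of the difference lay within 1.8-fold of 0 for 43 genes in NICD1 and 43 in NICD2, F3 being the exception in both, for 42 in NICD1&2, where C5ar1 and C6 were the exceptions, and for all 44 in NICD1 against NICD2. Within 1.5-fold the counts were 41, 41, 33 and 42. The median SD within groups was 0.126 for the 44 genes and 0.216 over all probes. Over the 11 arrays the level of a gene spanned from 0.21 (Klkb1, prekallikrein) to 1.37 (C5ar1), and F3 spanned 1.33.

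**Figure D2:**
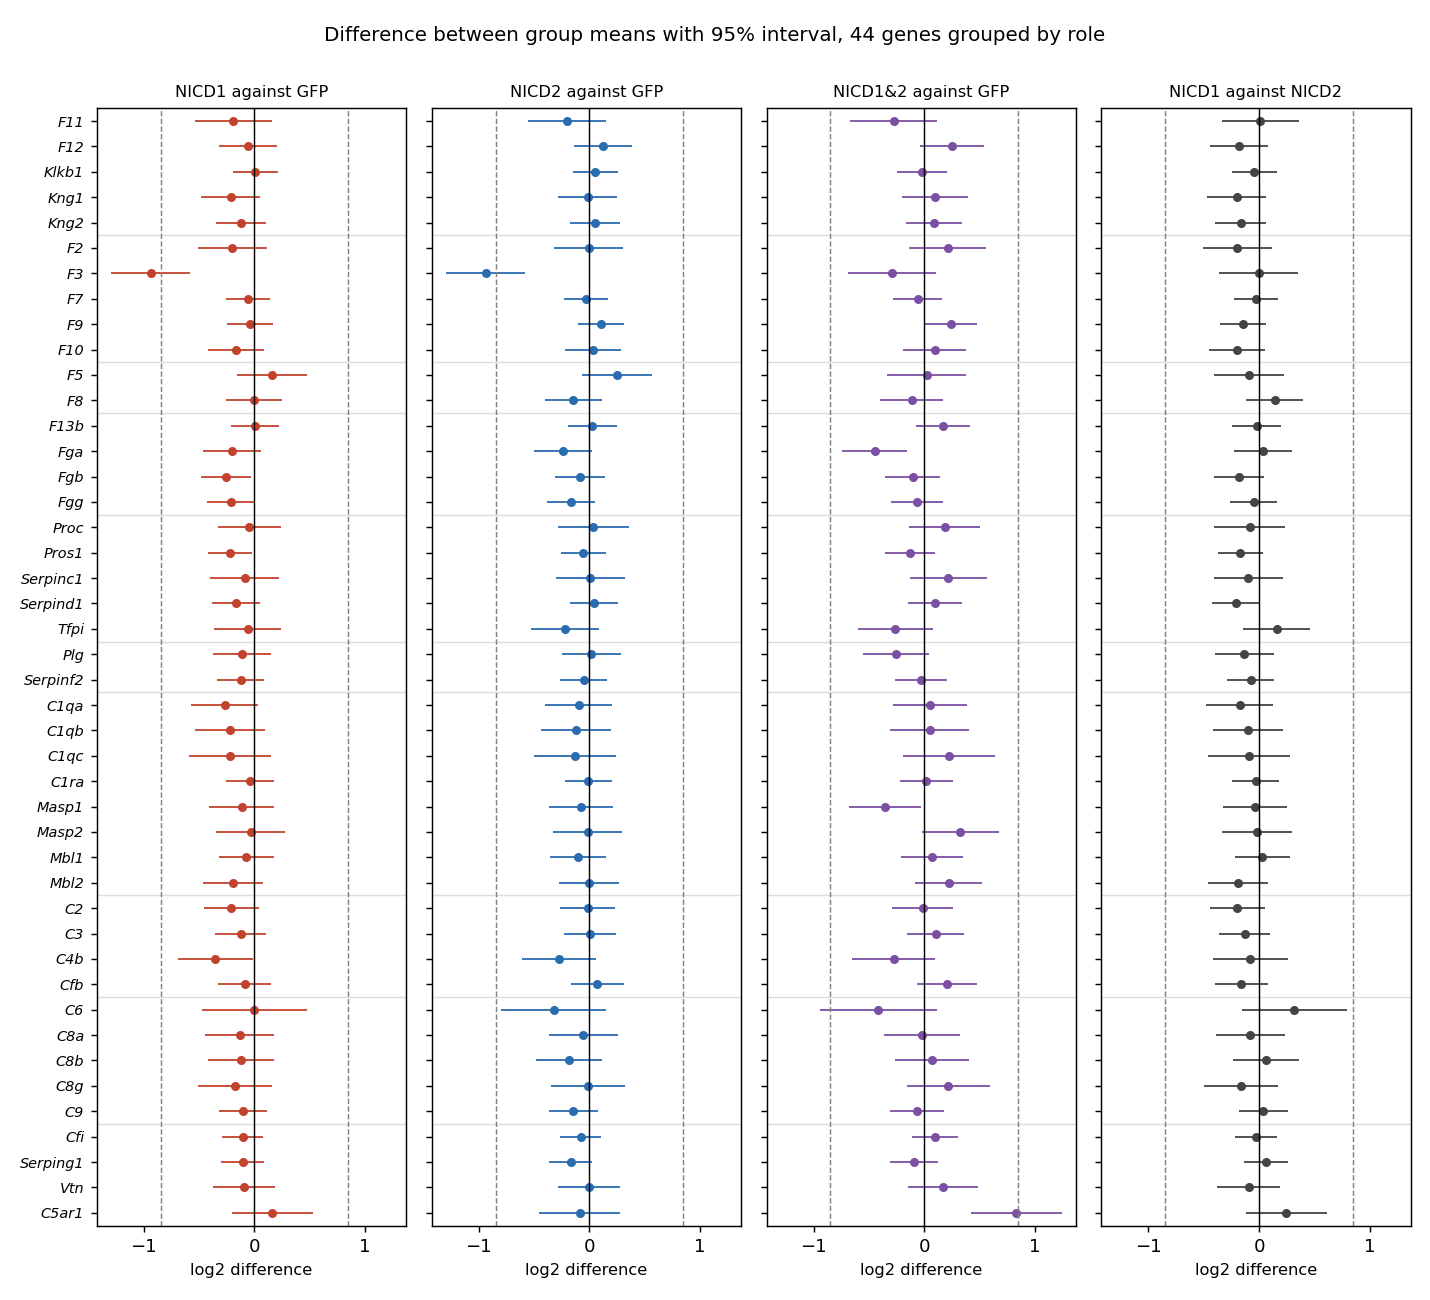
Difference in log2 signal between group means (points) with the 95% interval from the limma model (lines) for the 44 genes in 4 comparisons, grouped by role, where dashed lines mark a fold change of 1.8 in either direction. F3 lies at -0.94 in both NICD1 and NICD2 and at -0.29 in NICD1&2, and C5ar1 at 0.83 in NICD1&2.

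As a list, the genes leaned slightly below GFP in NICD1, by an amount that depended on the scaling. The median difference was -0.12 in NICD1, with 40 of 44 genes below 0 (background 47.1%), and -0.04 in NICD2, with 31 below 0 (background 45.7%), while the median of all probes was 0.01 and 0.02. In NICD1, 12 genes lay below all GFP arrays on all NICD1 arrays and 0 lay above (background 5.46% and 6.99%), and in NICD2 the counts were 7 and 0 (background 5.67% and 7.71%). Hepatocyte markers had a median of -0.12 in NICD1 (11 of 14 below 0) and 0.00 in NICD2, and their part in the result was not tested. On single arrays the median deviation of the 44 genes from the GFP mean was -0.15, -0.03 and -0.17 in NICD1, against 0.01, -0.04 and 0.02 in GFP. NICD1 1 and NICD1 3 were low and NICD1 2 lay among the GFP arrays, and the hepatocyte markers gave -0.14, 0.04 and -0.25 on these same arrays. NICD1 against NICD2 had a median of -0.08, with 34 of 44 below 0 (background 51.1%), and 5 genes lower and 1 higher without overlap (background 5.11% and 4.2%). In NICD1 the median was -0.06 with 33 of 44 below 0 under quantile normalization and -0.04 with 31 below 0 under normexp correction, and in NICD2 it was -0.07 under both, with 34 and 35 below 0. In NICD1 against NICD2 the median was -0.00 under both, with 22 and 23 of 44 below 0.

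In NICD1&2 the median difference was 0.05 and 19 of 44 genes lay below 0 (background 35%), but quantile normalization turned the median to -0.12, with 37 below 0, and normexp correction to -0.16, with 39 below 0. The median of all probes in this group was shifted by 0.12 relative to GFP, and the median of the 44 genes lay below that of all probes. Without overlap with GFP, 12 genes were higher and 4 lower (background 24.1% and 10.4%). These counts come from 2 arrays, and among the 25 genes above 0, quantile normalization put 18 below 0.

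**Figure D3:**
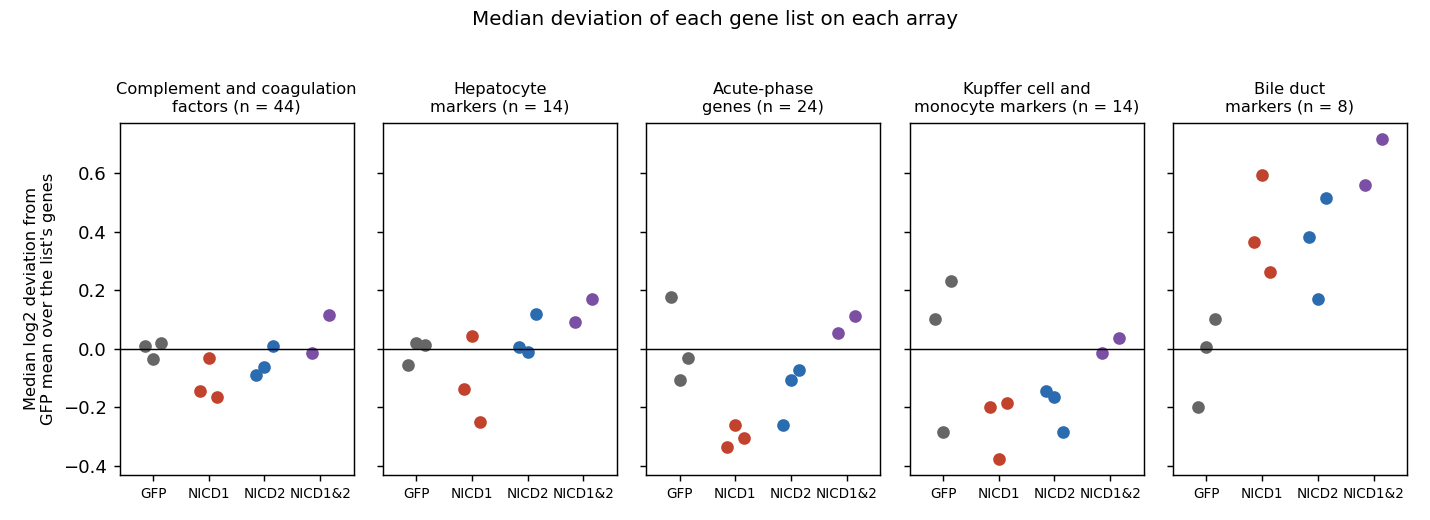
Median over the genes of a list of the log2 deviation from the GFP mean, for each array (points), for the 44 complement and coagulation factors and for 4 lists of other genes. The 44 factors stay between -0.17 and 0.11, and the bile duct markers lie above GFP on each NICD array.

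F3 encodes tissue factor, the cell-surface receptor that starts coagulation by binding factor VII, and was the 1 gene of the 44 that met the study's definition. It lies at chromosome 3, 121723537 to 121735052, on the plus strand of GRCm38.p6, and RefSeq's 250 bases before its start are shown because this gene carries the main difference. Capitals mark the matches to TGANTCA, the letters bound by AP-1, which were searched on both strands. They begin 146 and 135 bases before the start. TGGGAA, the core of the site of RBPJ, the DNA-binding partner of the Notch intracellular domains, was searched on both strands too and has 0 matches in this window.
F3 upstream (chr3:121723287-121723536, plus strand): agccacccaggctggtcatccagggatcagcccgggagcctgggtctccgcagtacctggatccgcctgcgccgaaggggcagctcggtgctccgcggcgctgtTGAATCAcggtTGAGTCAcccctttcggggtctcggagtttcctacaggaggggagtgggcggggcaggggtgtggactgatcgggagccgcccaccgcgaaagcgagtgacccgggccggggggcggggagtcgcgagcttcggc

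On the GFP arrays F3 was at 1.31, 1.25 and 0.77. On the NICD1 arrays it was at 0.05, 0.19 and 0.29. On the NICD2 arrays it was at -0.02, 0.21 and 0.33, and on the NICD1&2 arrays at 0.82 and 0.82. All 6 arrays with a single NICD lay below all GFP arrays, while both NICD1&2 arrays lay within the GFP range and above each array with a single NICD. Of all probes, 5.46% lay below GFP without overlap in NICD1 and 5.67% in NICD2. F3 differed from GFP by -0.94 (SE 0.16, adjusted p = 0.508) in NICD1 and by -0.94 (SE 0.16, adjusted p = 0.121) in NICD2. The difference was -0.29 (SE 0.18, adjusted p = 0.437) in NICD1&2 and -0.00 (SE 0.16, adjusted p = 1.0) between NICD1 and NICD2. Two-sided exact permutation of the arrays gave p = 0.1 in NICD1 and in NICD2, the smallest that 3 arrays against 3 can give, and p = 0.4 in NICD1&2. A comparison added after the values were seen put F3 in NICD1&2 0.65 above NICD1 (SE 0.18, adjusted p = 0.346) and 0.65 above NICD2 (SE 0.18, adjusted p = 0.56). Within slides F3 differed by -1.24 and -0.54 on slides 1 and 2 in NICD1, by -1.19 and -0.44 in NICD2, and by -0.46 and 0.05 in NICD1&2. Without GFP 1 the differences were -0.84 and -0.84, which is under a fold of 1.8, as was NICD2 without NICD2 1 (-0.84), and normexp correction gave -0.73 in both. Among the probes that all arrays detected, F3 in NICD2 passed the threshold with limma (adjusted p = 0.0497), while in NICD1 it did not (adjusted p = 0.279).

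**Figure D4:**
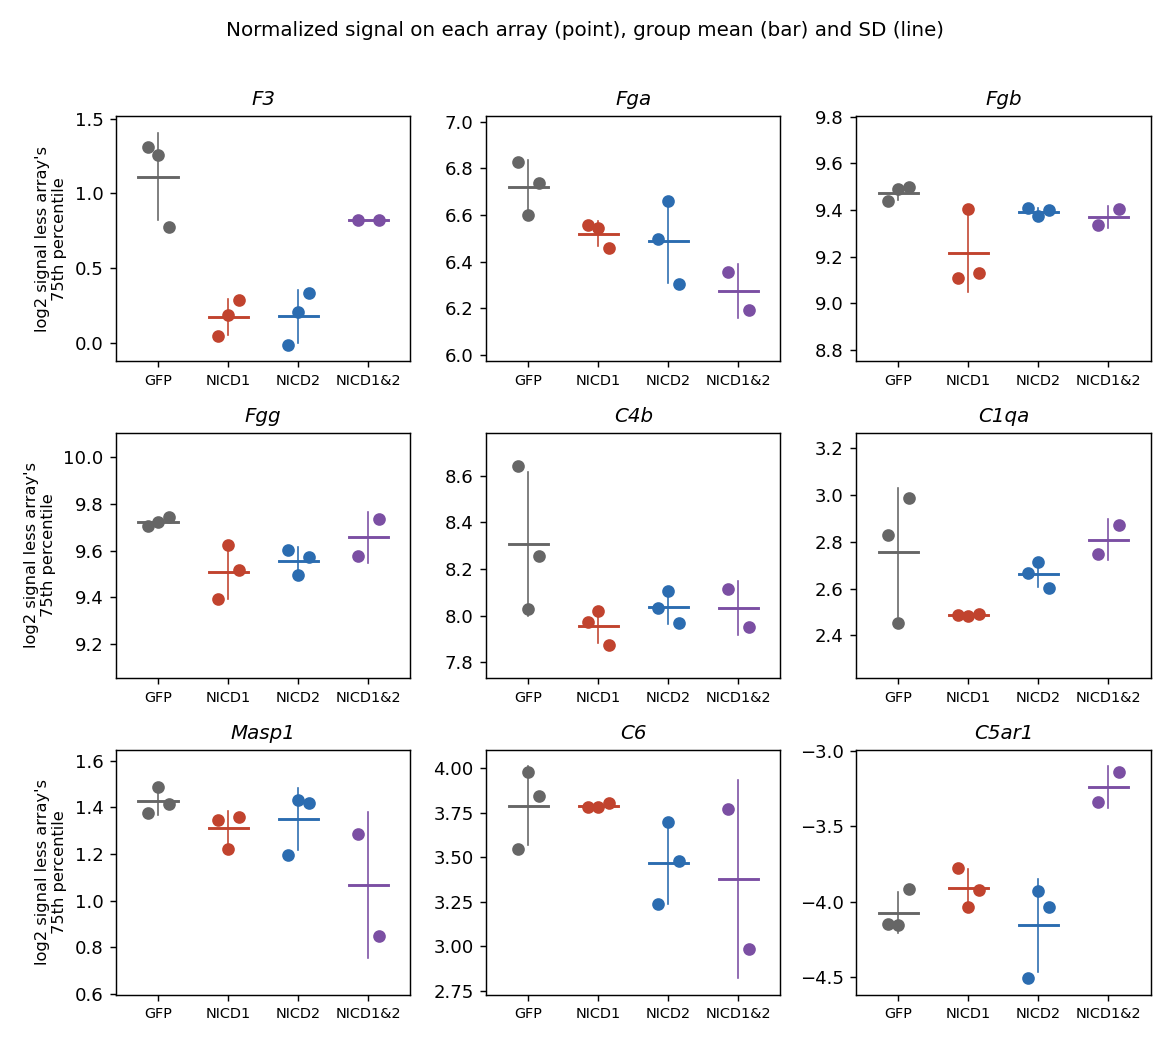
Log2 signal less the 75th percentile of the array for 9 genes on each array (points), with the group mean (horizontal bar) and SD (vertical line), where each panel has its own scale. F3 on the NICD1 and NICD2 arrays lies between -0.02 and 0.33, below the GFP arrays (0.77 to 1.31), and both NICD1&2 arrays lie at 0.82.

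None of the 4 vitamin K-dependent factors, F2, F7, F9 and F10, met the study's definition. F7, the protease that tissue factor activates, had a GFP mean of 3.95 and differed by -0.06, -0.03 and -0.06 in NICD1, NICD2 and NICD1&2. F10, factor X, was at 7.84, 7.79 and 7.84 on the GFP arrays, at 7.70, 7.74 and 7.54 on the NICD1 arrays, at 7.72, 7.83 and 8.03 on the NICD2 arrays and at 7.81 and 8.03 on the NICD1&2 arrays. The NICD1 arrays lay below all GFP arrays and overlapped the NICD2 arrays, with a difference of -0.16 from GFP (SE 0.11, adjusted p = 0.916) and of -0.20 from NICD2 (adjusted p = 1.0). The latter ranged from -0.27 to -0.11 without single arrays and from -0.39 to -0.07 over all alternatives. F7 and F10 lie 1499 bases apart on chromosome 8. F9, factor IX, was at 5.43, 5.32 and 5.28 on the GFP arrays, at 5.38, 5.31 and 5.24 on the NICD1 arrays, at 5.37, 5.44 and 5.54 on the NICD2 arrays and at 5.54 and 5.65 on the NICD1&2 arrays. Both NICD1&2 arrays lay above all GFP arrays, by 0.25 (SE 0.10, adjusted p = 0.322; 0.01 under normexp correction with quantile normalization), while NICD2 differed by 0.11 (SE 0.09, adjusted p = 0.926). That NICD2 difference ranged from 0.06 to 0.15 without single arrays. F2, prothrombin, had a GFP mean of 8.97 and differed by -0.20, -0.00 and 0.21.

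Of the contact system, which starts coagulation on charged surfaces and releases bradykinin, 4 of 5 genes were below GFP in NICD1 (background 47.1%), with a median of -0.12. F12, factor XII, was at 7.16, 7.11 and 7.16 on the GFP arrays, at 7.09, 7.18 and 6.99 on the NICD1 arrays, at 7.27, 7.11 and 7.42 on the NICD2 arrays and at 7.25 and 7.53 on the NICD1&2 arrays. Its difference was 0.13 (SE 0.12, adjusted p = 0.929) in NICD2 and 0.25 (SE 0.13, adjusted p = 0.382) in NICD1&2, which normexp correction turned to -0.09. Without NICD2 3 the former was 0.05 and without NICD2 2 it was 0.21, and without NICD1&2 2 the latter was 0.11 and without NICD1&2 1 it was 0.39. Klkb1, prekallikrein, varied least of the 44 genes, between 6.25 and 6.46 over the 11 arrays, with a difference of 0.01 in NICD1 (SE 0.09, adjusted p = 0.991). Its GFP arrays were at 6.35, 6.44 and 6.25, its NICD1 arrays at 6.39, 6.33 and 6.36, its NICD2 arrays at 6.46, 6.37 and 6.37 and its NICD1&2 arrays at 6.26 and 6.40, and all groups overlapped. Kng1, kininogen, was at 9.53, 9.46 and 9.61 on the GFP arrays, at 9.18, 9.56 and 9.21 on the NICD1 arrays, at 9.48, 9.46 and 9.62 on the NICD2 arrays and at 9.62 and 9.65 on the NICD1&2 arrays. NICD1 1 and NICD1 3 were its low arrays on this probe, and NICD1 against NICD2 differed by -0.20 (SE 0.12, adjusted p = 1.0). This difference ranged from -0.32 to -0.13 with single arrays left out, and another alternative brought it to -0.04. On the other 2 Kng1 probes all NICD1 arrays lay below all GFP and all NICD2 arrays, with differences of -0.21 and -0.09 from GFP and of -0.21 and -0.10 from NICD2 (adjusted p = 0.881, 0.929, 1.0 and 1.0). Its neighbour and close copy Kng2 had a GFP mean of 7.59 and differed by -0.12, 0.05 and 0.09, and signal shared between these copies was not tested. F11, factor XI, had a GFP mean of 5.17 and differed by -0.19, -0.20 and -0.28.

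The cofactors speed up factor X and thrombin formation. F5, factor V, was at 6.23, 6.17 and 6.41 on the GFP arrays, at 6.30, 6.41 and 6.59 on the NICD1 arrays, at 6.30, 6.60 and 6.68 on the NICD2 arrays and at 6.44 and 6.15 on the NICD1&2 arrays. It was the highest of the 44 in NICD2, by 0.25 (SE 0.14, adjusted p = 0.825), and gave 0.16 (SE 0.14, adjusted p = 0.927) in NICD1, with overlap in both. Leaving out single arrays gave 0.18 to 0.37 in NICD2 and 0.09 to 0.23 in NICD1. F8, factor VIII, had a GFP mean of -0.34 and differed by -0.00, -0.14 and -0.11.

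The means of the 3 fibrinogen genes lay slightly below GFP in each NICD group. Fga, Fgb and Fgg encode the alpha, beta and gamma chains and lie side by side on chromosome 3, with 11097 bases between Fgg and Fga and 8619 between Fga and Fgb. Their windows of 250 bases before the start are shown because the 3 genes are neighbours whose means lay below GFP in each NICD group. Capitals mark TGGGAA (RBPJ core), TGANTCA (AP-1) and TTCNNNGAA (STAT, factors that act in the acute-phase response), on either strand. Fga holds 1 STAT match, Fgb 2 RBPJ, 1 AP-1 and 1 STAT match, and Fgg 1 RBPJ match.
Fga upstream (chr3:83025903-83026152, plus strand): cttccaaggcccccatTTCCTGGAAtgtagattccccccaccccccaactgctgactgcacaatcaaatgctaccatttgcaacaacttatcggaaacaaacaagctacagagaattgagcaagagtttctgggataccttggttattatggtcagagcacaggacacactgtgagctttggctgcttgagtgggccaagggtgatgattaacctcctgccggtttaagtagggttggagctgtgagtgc
Fgb upstream (chr3:83049864-83050113, minus strand): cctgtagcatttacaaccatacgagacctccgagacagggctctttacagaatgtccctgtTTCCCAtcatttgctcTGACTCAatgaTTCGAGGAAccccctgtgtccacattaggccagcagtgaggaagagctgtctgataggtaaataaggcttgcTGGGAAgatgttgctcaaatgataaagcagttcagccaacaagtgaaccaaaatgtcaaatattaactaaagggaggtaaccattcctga
Fgg upstream (chr3:83007474-83007723, plus strand): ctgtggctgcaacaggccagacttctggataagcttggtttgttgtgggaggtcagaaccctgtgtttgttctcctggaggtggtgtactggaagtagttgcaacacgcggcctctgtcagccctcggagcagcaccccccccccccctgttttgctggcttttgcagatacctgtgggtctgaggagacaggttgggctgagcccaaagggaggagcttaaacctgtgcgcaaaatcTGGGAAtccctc

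Fga was at 6.83, 6.60 and 6.74 on the GFP arrays, at 6.56, 6.55 and 6.46 on the NICD1 arrays, at 6.50, 6.66 and 6.30 on the NICD2 arrays and at 6.36 and 6.19 on the NICD1&2 arrays. Fgb was at 9.44, 9.49 and 9.5 on the GFP arrays, at 9.11, 9.41 and 9.13 on the NICD1 arrays, at 9.41, 9.37 and 9.40 on the NICD2 arrays and at 9.34 and 9.40 on the NICD1&2 arrays. Fgg was at 9.70, 9.72 and 9.74 on the GFP arrays, at 9.39, 9.62 and 9.52 on the NICD1 arrays, at 9.60, 9.49 and 9.57 on the NICD2 arrays and at 9.58 and 9.73 on the NICD1&2 arrays. In NICD1 the arrays of all 3 genes lay below all GFP arrays, in NICD2 those of Fgb and Fgg did, and in NICD1&2 those of Fga and Fgb did, where 5.46%, 5.67% and 10.4% of all probes lay below GFP without overlap. The differences in NICD1 were -0.20, -0.26 and -0.21 for Fga, Fgb and Fgg (SE 0.12, 0.10 and 0.09, adjusted p = 0.91, 0.881 and 0.898). In NICD2 they were -0.23, -0.08 and -0.17 (adjusted p = 0.78, 0.954 and 0.83). In NICD1&2 they were -0.45, -0.11 and -0.07 (SE 0.13, 0.11 and 0.11, adjusted p = 0.218, 0.639 and 0.757). The NICD1&2 values moved with the scaling: under normexp correction with quantile normalization they were -0.69, -0.41 and -0.39, with adjusted p = 0.0978, 0.0505 and 0.0511. A second Fga probe gave 0.00, -0.22 and -0.13 in NICD1, NICD2 and NICD1&2. F13b, the carrier subunit of the enzyme that cross-links fibrin, had a GFP mean of 5.08 and differed by 0.01, 0.03 and 0.17.

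Among the inhibitors of coagulation, all 5 were below GFP in NICD1 (background 47.1%). In NICD1&2, 3 of 5 were above GFP, of which Serpinc1 and Serpind1 were at -0.05 and -0.09 with quantile normalization. Pros1, protein S, the cofactor of protein C, was at 4.95, 5.0 and 5.12 on the GFP arrays and at 4.74, 4.78 and 4.89 on the NICD1 arrays, below all GFP arrays, with a difference of -0.22 (SE 0.09, adjusted p = 0.881). Proc, protein C, had a GFP mean of 7.85 and differed by -0.05, 0.04 and 0.19, and its NICD2 mean rests on 2 arrays because its spot on NICD2 1 was left out as non-uniform. Serpind1, heparin cofactor II, was at 7.62, 7.72 and 7.69 on the GFP arrays, at 7.48, 7.59 and 7.47 on the NICD1 arrays, at 7.67, 7.63 and 7.86 on the NICD2 arrays and at 7.71 and 7.84 on the NICD1&2 arrays. Its NICD1 arrays lay below all other arrays, with -0.21 against NICD2 (SE 0.10, adjusted p = 1.0) and -0.16 against GFP (adjusted p = 0.911). Tfpi, the inhibitor of tissue factor and factor VII, was at -0.32, -0.51 and -0.45 on the GFP arrays, at -0.41, -0.47 and -0.58 on the NICD1 arrays, at -0.65, -0.45 and -0.84 on the NICD2 arrays and at -0.87 and -0.51 on the NICD1&2 arrays. Its groups overlapped, with 0.16 in NICD1 against NICD2 (SE 0.14, adjusted p = 1.0) and -0.26 in NICD1&2 against GFP (SE 0.15, adjusted p = 0.42). The former ranged from 0.06 to 0.26 without single arrays. The other Tfpi probes gave -0.13 and 0.13 in NICD1, -0.12 and -0.08 in NICD2, and -0.27 and 0.09 in NICD1&2, so all 3 probes lay below GFP in NICD2 and 1 of 3 lay above it in NICD1 and in NICD1&2. Serpinc1, antithrombin, had a GFP mean of 9.11 and differed by -0.09, 0.01 and 0.22. Of the fibrinolysis genes, Plg, plasminogen, had a GFP mean of 4.84 and differed by -0.11, 0.02 and -0.26, and Serpinf2, the plasmin inhibitor, had a GFP mean of 8.08 and differed by -0.12, -0.05 and -0.03.

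All 8 genes that start the classical and lectin pathways were below GFP in NICD1 (background 47.1%) and in NICD2 (background 45.7%), with medians of -0.15 and -0.09. Of all 44 genes, 40 and 31 were below GFP in these groups. In NICD2 the differences of the 8 genes ranged from -0.13 to -0.001, so some were close to 0. C1qa, a chain of C1q, the antibody-binding part of C1, was at 2.83, 2.45 and 2.99 on the GFP arrays, at 2.49, 2.48 and 2.49 on the NICD1 arrays, at 2.67, 2.71 and 2.60 on the NICD2 arrays and at 2.75 and 2.87 on the NICD1&2 arrays. GFP 2 was the lowest of all 11 arrays and the NICD1 arrays lay just above it, so the groups overlapped, with -0.27 in NICD1 (SE 0.13, adjusted p = 0.903), -0.42 without GFP 2 and -0.15 without GFP 3. Its neighbours C1qb and C1qc had GFP means of 2.70 and 3.77 and differed by -0.22 and -0.22 in NICD1, -0.12 and -0.13 in NICD2, and 0.05 and 0.23 in NICD1&2, and GFP 2 was low for both. Macrophages make C1q, and the 14 markers of Kupffer cells and monocytes lay mostly to the same side of GFP in NICD1 and NICD2: their median deviation was 0.10, -0.28 and 0.23 on the GFP arrays and -0.20, -0.38 and -0.18 on the NICD1 arrays. All 14 lay below GFP in NICD1, with a median of -0.23, and 13 of 14 in NICD2, with a median of -0.21. Their summed level ranged from 6.67 to 7.22 in GFP, from 6.66 to 6.83 in NICD1, from 6.72 to 6.88 in NICD2 and from 7.04 to 7.17 in NICD1&2. Their part in the values of C1q was not tested.

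Of the mannose-binding lectins and their proteases, Masp1 lay below and Masp2 above GFP in NICD1&2, with sizes that rest mostly on 1 array. Masp1 was at 1.37, 1.49 and 1.41 on the GFP arrays, at 1.35, 1.22 and 1.36 on the NICD1 arrays, at 1.2, 1.43 and 1.42 on the NICD2 arrays and at 1.29 and 0.85 on the NICD1&2 arrays. Masp2 was at 5.92, 5.84 and 5.91 on the GFP arrays, at 5.89, 5.85 and 5.83 on the NICD1 arrays, at 5.86, 5.74 and 6.02 on the NICD2 arrays and at 5.95 and 6.48 on the NICD1&2 arrays. NICD1&2 2 was the lowest array for Masp1 and the highest for Masp2. In NICD1&2 they differed from GFP by -0.36 (SE 0.14, adjusted p = 0.308) and 0.33 (SE 0.15, adjusted p = 0.355), and without NICD1&2 2 by -0.14 and 0.06. With normexp correction Masp2 differed by 0.00791. Mbl1 and Mbl2, the lectins themselves, had GFP means of 4.69 and 9.30 and differed by -0.07 and -0.19 in NICD1, -0.10 and -0.00 in NICD2, and 0.07 and 0.22 in NICD1&2. C1ra, the protease of C1, had a GFP mean of 6.33 and differed by -0.04, -0.01 and 0.02.

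Of the genes of the C3 convertases, C4b had the largest difference in NICD1. C4b was at 8.64, 8.03 and 8.26 on the GFP arrays, at 7.97, 8.02 and 7.88 on the NICD1 arrays, at 8.03, 8.11 and 7.97 on the NICD2 arrays and at 8.11 and 7.95 on the NICD1&2 arrays. GFP 1 was the highest array, and the NICD1 arrays lay below all GFP arrays. The differences were -0.35 (SE 0.15, adjusted p = 0.888), -0.27 (SE 0.15, adjusted p = 0.813) and -0.28 (SE 0.17, adjusted p = 0.433) in NICD1, NICD2 and NICD1&2. Without GFP 1 they were -0.19 in NICD1 and -0.11 in NICD2, and the NICD1&2 difference rests on the same high GFP 1 array. A second C4b probe gave -0.36, -0.22 and -0.43. Mice have a close copy of C4b, and signal shared with it was not tested. C2 had a GFP mean of 6.31 and differed by -0.21, -0.02 and -0.01, and its neighbour Cfb, factor B, had a GFP mean of 8.29 and differed by -0.09, 0.07 and 0.21. A second Cfb probe gave -0.06, -0.08 and 0.04. C3, the protein on which all routes converge, had a GFP mean of 10.1 and differed by -0.13, 0.01 and 0.10, with SE 0.10, 0.10 and 0.12. A second C3 probe gave -0.09, -0.04 and 0.12.

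In the terminal pathway C6 varied most. C6 was at 3.55, 3.98 and 3.85 on the GFP arrays, at 3.78, 3.78 and 3.81 on the NICD1 arrays, at 3.23, 3.70 and 3.48 on the NICD2 arrays and at 3.77 and 2.98 on the NICD1&2 arrays. NICD1 lay within the GFP range, NICD2 reached below it, and NICD1&2 2 was the lowest array. The differences were -0.32 (SE 0.21, adjusted p = 0.863) in NICD2, -0.41 (SE 0.23, adjusted p = 0.413) in NICD1&2 and 0.32 (SE 0.21, adjusted p = 1.0) in NICD1 against NICD2, and in NICD1&2 it was -0.02 without NICD1&2 2. With single arrays left out it ranged from -0.44 to -0.20 in NICD2 and from 0.20 to 0.43 in NICD1 against NICD2. C8a, C8b and C8g, the chains of C8, had GFP means of 6.63, 6.79 and 8.65 and differed by -0.13, -0.12 and -0.18 in NICD1, -0.05, -0.19 and -0.01 in NICD2, and -0.02, 0.07 and 0.22 in NICD1&2. A second C8a probe gave -0.16, -0.27 and -0.70 (SE 0.33 in NICD1&2). Its 2 NICD1&2 arrays lay far apart, with an SD of 0.82 beside 0.12 in GFP. A second C8b probe gave -0.33, -0.31 and -0.12. C9, the pore-forming unit, had a GFP mean of 7.66 and differed by -0.10, -0.14 and -0.06.

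C5ar1, the receptor of the C5a fragment on leukocytes, was near the lower limit of the arrays and had the highest difference of the 44 in NICD1&2. It was at -4.15, -4.16 and -3.91 on the GFP arrays, at -3.78, -4.03 and -3.92 on the NICD1 arrays, at -4.51, -3.93 and -4.04 on the NICD2 arrays and at -3.34 and -3.14 on the NICD1&2 arrays. Both NICD1&2 arrays lay above all others, and GFP 2 and NICD2 1 were not well above background. The difference was 0.83 (SE 0.18, adjusted p = 0.141) in NICD1&2, 0.16 (SE 0.16, adjusted p = 0.928) in NICD1 and 0.25 (SE 0.16, adjusted p = 1.0) in NICD1 against NICD2. The latter was 0.07 without NICD2 1, and the NICD1 difference was 0.10 without NICD1 1. Exact permutation gave p = 0.1 in NICD1&2, the smallest that 2 arrays against 3 can give. Itgam, a chain of complement receptor 3 on leukocytes, met the study's definition in NICD1&2 with a difference of -0.98 (SE 0.28, adjusted p = 0.208). The 14 markers of Kupffer cells and monocytes had a median of 0.04 in NICD1&2, with 7 above and 7 below 0 and a range from -0.13 to 0.54, and their part in the values of C5ar1 was not tested. Among the regulators, Serping1, the C1 inhibitor, had a GFP mean of 7.61 and differed by -0.11, -0.17 and -0.09, Vtn, vitronectin, had a GFP mean of 8.98 and differed by -0.10, -0.00 and 0.17, and Cfi, factor I, had a GFP mean of 8.22 and differed by -0.11, -0.08 and 0.10.

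Other genes of both cascades were followed from lists of 25 coagulation and 26 complement genes, of which 23 and 26 were tested. Their medians in NICD1, NICD2 and NICD1&2 were -0.10, 0.01 and 0.08 for coagulation and -0.11, -0.08 and -0.01 for complement, and 0 of them passed an adjusted p under 0.05. Of the complement genes, Cfd, factor D, met the study's definition as lower in all 3 groups (-0.89, -1.36 and -1.52, adjusted p = 0.905, 0.609 and 0.272), with GFP 1 at -1.92 and GFP 3 at -3.57. Fcnb, a ficolin of myeloid cells, met it as higher in all 3 groups (1.12, 0.88 and 1.71, adjusted p = 0.898, 0.838 and 0.259), but only 1 of 3 GFP arrays detected it well above background, so the sizes rest partly on signals at background.

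Genes of the acute-phase response, the change in the liver's plasma proteins during inflammation, lay mostly below GFP in NICD1. Of 24 such genes 22 were below GFP in NICD1 (background 47.1%), with a median of -0.31, 15 were in NICD2 (background 45.7%), with a median of -0.17, and 10 were in NICD1&2 (background 35%), with a median of 0.10. The median deviation of the list was 0.18, -0.11 and -0.03 on the GFP arrays, -0.34, -0.26 and -0.30 on the NICD1 arrays and -0.26, -0.11 and -0.07 on the NICD2 arrays. GFP 1 was thus the high array, all NICD1 arrays lay below all GFP arrays, and NICD2 2 and NICD2 3 lay within the GFP range. Saa1 and Saa2, serum amyloid proteins, met the study's definition as lower in NICD1 (-1.53 for both, adjusted p = 0.781 and 0.802). Saa1 was at 7.69, 5.36 and 6.46 on the GFP arrays and at 4.93, 5.26 and 4.73 on the NICD1 arrays, so GFP 1 was high and the groups did not overlap. Fgl1, a fibrinogen-like protein of hepatocytes, met the definition as lower in NICD2 (-0.88, adjusted p = 0.6) and NICD1&2 (-0.91, adjusted p = 0.293). The part of this response in the values of the 44 genes was not tested.

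Of the 44 genes, 34 matched a RefSeq promoter on GRCm38.p6. Within 250 bases before the start, TGGGAA stood in 32.4% of these genes and in 24.1% of all 27025 genes with a promoter, TTCNNNGAA in 17.6% and 8.1%, and TGANTCA in 11.8% and 7.8%. In F9 and Masp2 the letters of the RBPJ and STAT searches overlapped. These are matches of letters and not binding sites, and no binding data were used.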

How the data were processed

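Cy3-labelled RNA of mouse liver was hybridised to 11 Agilent 1-colour arrays. The authors' Feature Extraction 11.5.1.1 software subtracted background, and the processed signal of each spot was deposited as an intensity. The deposited table holds log2 values, the processed signal scaled to the 75th percentile of the array, as a comparison with the scanner files showed. The methods name another RNA kit and array format than the labels and files show. Here 1 model with a mean for each of the 4 groups was fitted with lmFit and eBayes (limma 3.58.1, R 4.3.3) to all 11 arrays, for probes well above background on at least 2 arrays, and non-uniform spots were left out. P-values were adjusted by Benjamini-Hochberg over all probes. Single values were tested by exact permutation.

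Every member is named with its level. A member is given in full where it was called or met the study's definition, and otherwise the 3 largest differences in each direction and comparison are. Genes of other lists are named where they met the definition, except for a result that is not reported here. The members and lists were chosen with earlier results of these data known. Alternatives were quantile normalization, normexp correction (offset 50), another 75th percentile, other filters, an unmoderated model, blocks by slide and replicate number, the mean of a gene's probes, and leaving out each array. Normexp correction was always followed by quantile normalization, so the 2 steps changed together. Coordinates and sequences are those of RefSeq on GRCm38.p6. The script was tested on simulated data.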

Additional observations from a re-analysis of the deposited data

Results flagged for a closer look

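Cfi is complement factor I, a protease that inactivates C3b and C4b. It was flagged because the 2 NICD1&2 arrays lay above (background 24.1%) and the 3 NICD2 arrays below every GFP array (background 5.67%). It was at 8.26, 8.20 and 8.20 on the GFP arrays, at 8.07, 8.21 and 8.06 on the NICD1 arrays, at 8.10, 8.15 and 8.18 on the NICD2 arrays and at 8.30 and 8.34 on the NICD1&2 arrays. The gap between the means of NICD1&2 and NICD2 was 0.175, and limma gave it an SE of 0.09 and an adjusted p of 0.575 in a comparison added after the values were seen. Against GFP the differences were -0.08 in NICD2 and 0.10 in NICD1&2, and the latter became -0.11 with quantile normalization and -0.07 with normexp correction.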

How the results depend on the processing

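The number of members that met the study's definition was 1 in NICD1 and in NICD2 (F3). It was 0 under normexp correction with quantile normalization, or with P under 0.05 and a fold over 2. Leaving out single arrays gave 0 to 1 in NICD1 (0 without GFP 1), 0 to 1 in NICD2 (0 without GFP 1 or NICD2 1), 0 to 1 in NICD1&2 (1 without GFP 3 or NICD1&2 1) and 0 to 0 in NICD1 against NICD2. The replicate block changed the count in NICD1&2 from 0 to 1. Over 15 pairs of arrays with the same number the residuals correlated from -0.43 to 0.18, 6 of them over 0.1. Over 30 pairs with different numbers they correlated from -0.35 to 0.47, 7 of them over 0.1. Residuals in groups of 2 or 3 arrays depend on each other, so they cannot settle whether the numbers pair the arrays. The median difference of the members, whose SD between arrays was 0.06, moved in NICD1 to -0.0428 (normexp), in NICD1&2 to -0.116 (quantile), -0.16 (normexp) and -0.0263 (75th percentile taken over probes that all arrays detected), and in NICD1 against NICD2 to -0.00249 and -0.00200 (quantile, normexp). Without single arrays it ranged from -0.162 to -0.0856 in NICD1, from -0.0658 to -0.00619 in NICD2, from -0.0163 to 0.113 in NICD1&2 and from -0.105 to -0.0479 in NICD1 against NICD2. The cause of these moves was not tested.

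F3 kept its direction in NICD1 (-1.24 to -0.54) and NICD2 (-1.19 to -0.44) in all 19 alternatives, with adjusted p from 0.17 to 0.989 and from 0.0497 to 0.459, where the lowest came without GFP 3 and with probes that all arrays detected, respectively. Its difference in NICD1 against NICD2 turned to 0.00447 (quantile), 0.00286 (normexp), 0.0242 (75th percentile), 0.00483 (slide block), 0.0613 without NICD1 1, 0.0138 without NICD2 2 and 0.0775 without NICD2 3 (-0.0977 to 0.0775 over single arrays left out), and within slide 2 F3 in NICD1&2 turned to 0.0484. C5ar1 turned to -0.0301 in NICD1 and -0.017 in NICD1 against NICD2 (normexp) and to -0.0628 in NICD1 within slide 2. F12 in NICD1&2 turned to -0.0922 (normexp), C6 in NICD1&2 to 0.00975 within slide 1, and Klkb1 in NICD1 to -0.0373 without GFP 3, -0.00418 without NICD1 1 (-0.0373 to 0.0561 over single arrays left out) and -0.00945 within slide 1. With 2 arrays in NICD1&2, a comparison without 1 of them assumes that the lone array varies like the other groups.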

Other observations

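Some genes of the marker lists met the study's definition in these livers. Hes1, a target gene of Notch, differed from GFP by -0.03 in NICD1, 1.64 in NICD2 (adjusted p = 0.416) and 1.36 in NICD1&2 (adjusted p = 0.28), and was lower in NICD1 than in NICD2 (-1.67). Nrarp, another target gene, was not well above background on any GFP array. Its level on each GFP array was set to the lower limit of detection or, if higher, to what the probe itself gave. Against that level it was at least 4.65-fold higher in NICD2 (3 of 3 arrays well above background, adjusted p = 0.102) and at least 7.07-fold higher in NICD1&2 (2 of 2, adjusted p = 0.071). The NICD1 mean was 1.29-fold higher (adjusted p = 0.839), but only 2 of 3 arrays were well above background, so this is not a lower bound. Sox9, a transcription factor of bile duct cells, was higher in NICD1&2 by 1.16 (SE 0.31, adjusted p = 0.196), beside 8 of 8 bile duct markers above GFP in each NICD group, with medians of 0.43, 0.32 and 0.69.

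Lyve1, a receptor of sinusoidal endothelium, differed in NICD2 by 0.86 (adjusted p = 0.282) and in NICD1&2 by 0.93 (adjusted p = 0.161). The 12 sinusoidal endothelium markers had medians of -0.00 in NICD2 and -0.01 in NICD1&2, with 6 above and 6 below 0 in both. Marco, a scavenger receptor of Kupffer cells, differed in NICD1 by -0.89 (adjusted p = 0.903), and Cd79a, of B cells, by -0.93 (adjusted p = 0.902). In NICD1 all 14 Kupffer cell and monocyte markers and 9 of 12 lymphocyte markers lay below GFP, with medians of -0.23 and -0.19. Of the acute-phase genes, Socs3 differed in NICD2 by -1.63 (adjusted p = 0.719), and Lcn2 differed by -1.33 in NICD1 against NICD2 (adjusted p = 1.0).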
